A study of Gallus gallus with 8 samples.

Results

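Transcripts of the insulin-like growth factor (IGF) system were followed over embryonic days 1, 2, 3 and 4 in yolk sac endoderm of the chicken. The genes were the ligands IGF1 and IGF2, the receptor IGF1R and the binding proteins IGFBP1, IGFBP2, IGFBP3, IGFBP4, IGFBP5 and IGFBP7, taken by gene symbol from the annotation of the Affymetrix Chicken Genome Array. All 9 symbols were on the array, with 11 probe sets, 3 for IGF2 and 1 for each of the other genes, among 13009 genes with a single symbol and 38439 probe sets in all. A group was a day, and each day had 2 arrays, each with its own pool of endoderm gathered at 4 h intervals across that day. The eggs came from incubation at 38 °C, and the labels give no genotype, strain or treatment other than the dispase used to lift the endoderm off the mesoderm. Because the samples are pools, the spread between the arrays of a day is not the spread between embryos. The source name of the day 1 samples reads yolk sac only, while their tissue label reads endoderm.

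IGF1 and IGF2 are secreted peptides related to insulin that promote growth and survival of cells. Both signal through IGF1R, a receptor tyrosine kinase that feeds the PI3K to AKT and the RAS to MAPK pathways. The binding proteins hold IGFs outside the cell, carry them, and can restrain or release them, and IGFBP7 binds IGFs more weakly than the others. The yolk sac endoderm is the epithelium that absorbs yolk and makes plasma proteins for the embryo before its liver does. In the chicken reference table the 9 genes include neighbours: IGFBP1 lies next to IGFBP3, IGFBP5 next to IGFBP2, and INS, the insulin gene, next to IGF2.

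Values below are deposited signals in arbitrary units, and log2 changes ± SE are on the log2(signal + 16) scale after quantile normalization, with adjusted p-values from limma. The normalization was needed because the trimmed mean signal of the arrays ranged from 76.3 to 169.8, with day 1 replicate 2 the brightest, and without it the median probe set changed by -0.55 from day 1 to day 4. The endoderm markers TTR, APOA1, FOXA2 and HNF4A gave signals on every array, and 19 or 20 of 21 endoderm markers lay above the filter signal of 9.96 on each array. These named markers were picked after their values were seen and do not stand for the list. The summed signal of the 21 endoderm markers was not even over the days. It was 45541 to 54042 on day 1, 65680 to 72057 on day 2, 80344 to 83906 on day 3 and 75599 to 84442 on day 4. On days 2 and 3, replicate 1 stood apart in the signal of the other germ layer that the dispase step should remove. The summed signal of 21 mesoderm, mesothelium and smooth muscle markers was 17485 on day 2 replicate 1 and 587 on replicate 2, and 6608 and 599 at day 3. On those replicate 1 arrays 20 and 17 of the 21 markers exceeded the filter signal, and on the replicate 2 arrays 11 and 10. On day 1 it was 3617 and 7596, and on day 4 it was 604 and 442. In tissue samples of this kind, fewer cells of a type and less RNA per cell cannot be told apart.

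The receptor gene IGF1R was the member with a call in the comparison of day 4 with day 1. Its signals were 399 and 499 at day 1, 299.7 and 81.2 at day 2, 105 and 46.4 at day 3, and 34.1 and 44.0 at day 4. Both arrays of day 1 lay above all others, and the arrays of day 4 lay below every array of days 1, 2 and 3 in the deposited signals. The day means stepped down from 449 ± 70.7 to 190.4 ± 155, 75.9 ± 41.7 and 39.1 ± 6.98 (SD, n = 2). After normalization IGF1R fell by 2.33 ± 0.47 on the log2 scale from day 1 to day 4, which is 5.03-fold, with a 95% interval of -3.39 to -1.27 (adjusted p = 0.0099). It also differed between days in the F-test (adjusted p = 0.031). None of the single steps passed: -0.88 ± 0.47 from day 1 to day 2 (adjusted p = 0.31), -0.90 ± 0.47 from day 2 to day 3 (adjusted p = 0.46) and -0.55 ± 0.47 from day 3 to day 4 (adjusted p = 0.89).

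On days 2 and 3 the higher IGF1R signal was on the array with the high mesoderm marker sum. With both of those arrays left out, an alternative chosen after the data were seen, the change from day 1 to day 4 was -2.34. That comparison holds neither array, so its estimate could move only with the repeated normalization. It says nothing of mesoderm signal on days 1 and 4. In the same fit IGF1R fell by 1.57 from day 1 to day 2, where day 2 then had 1 array. The day 2 array left out had the higher IGF1R signal, so the larger fall followed from that choice. The mesoderm marker sum was also lower on day 4 than on day 1. The summed signal of 13 endothelial and vessel precursor markers was 3924 and 4331 at day 1 and 521 and 386 at day 4. On days 2 and 3 this sum was also higher on replicate 1, with 4511 and 824 at day 2 and 1365 and 591 at day 3. A sign of RNA quality moved with the days as well: the 3' to 5' signal ratio of beta-actin was 2.91 and 1.498 at day 1, 1.74 and 3.77 at day 2, 2.63 and 3.36 at day 3, and 4.30 and 3.22 at day 4. Both arrays of day 4 lay above both of day 1 in that ratio, while the GAPDH ratio of 1.11 and 1.18 on day 4 lay within the 1.404 and 1.05 of day 1. The part of such cells and of RNA quality in the fall of IGF1R, and in the other changes from day 1 to day 4, was not tested. Marker sums of primitive streak and ectoderm were also higher on day 1 than on day 4, and that of red cells was lower, as the closing section gives. The endoderm marker sum given above was lower on day 1 as well. Their part was not tested either. The call from day 1 to day 4 was lost without day 1 replicate 1 (adjusted p = 0.070), day 1 replicate 2 (0.058) or day 4 replicate 1 (0.063), with changes of -2.14, -2.51 and -2.24. The F-test call was lost without either array of day 1 (adjusted p = 0.17 and 0.15), day 3 replicate 2 (0.054) or either array of day 4 (0.086 and 0.067).

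**Figure D1:**
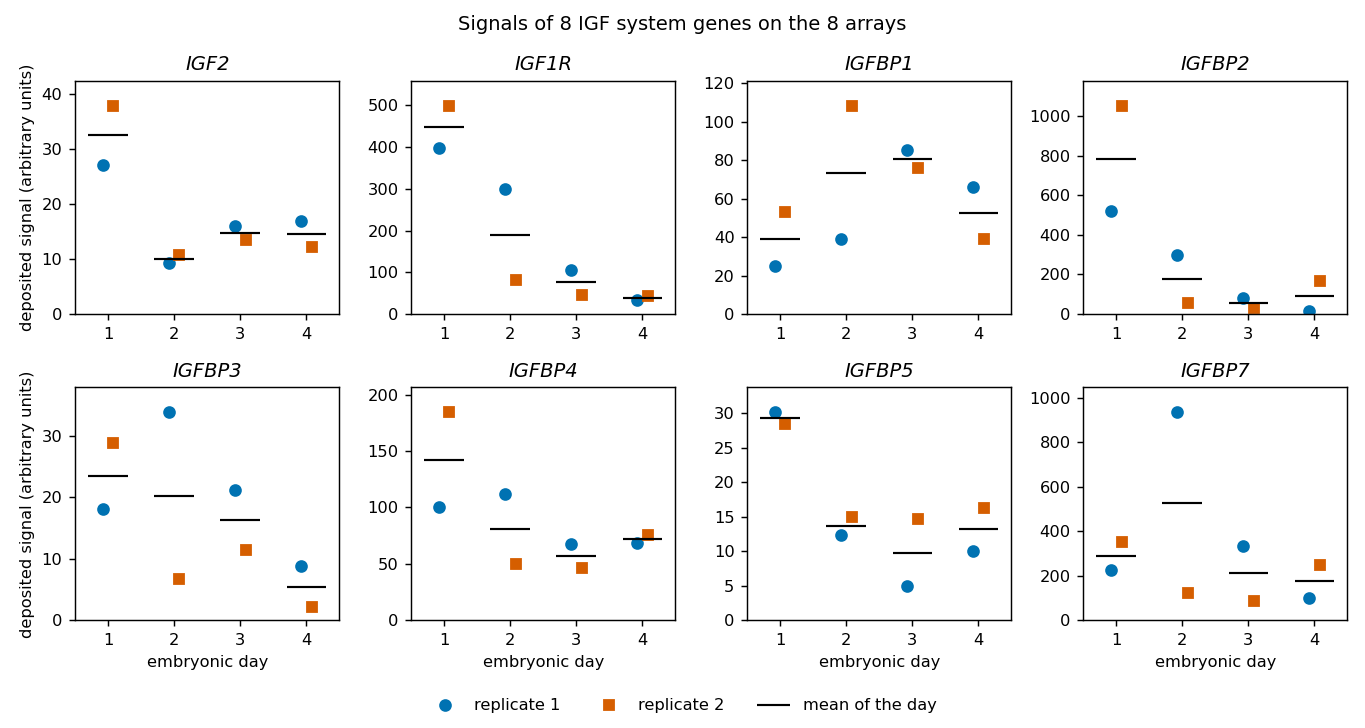
Deposited signals in arbitrary units (y axis, from 0) of the 8 tested genes by embryonic day (x axis). Circles are replicate 1, squares replicate 2 and black lines the mean of the 2 arrays of a day; IGF1R and IGFBP2 are highest on both arrays of day 1, and IGFBP7 reaches 935 on 1 array of day 2.

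IGFBP2 encodes a binding protein of embryonic tissues and plasma that prefers IGF2 to IGF1 in mammals. Its signals were 519 and 1051 at day 1, 297 and 54.8 at day 2, 83.1 and 28.8 at day 3, and 15.6 and 168 at day 4. Both arrays of day 1 were above all later ones, while the arrays of day 4 were 10.8-fold apart and held both the lowest signal of IGFBP2 and one above those of day 3. The normalized change from day 1 to day 4 was -2.69 ± 0.85 with a 95% interval of -4.63 to -0.76, and it missed the threshold (adjusted p = 0.051). As deposited it was -3.31 ± 0.78 and passed (adjusted p = 0.0079). Without day 4 replicate 2 the normalized change was -4.01 (adjusted p = 0.011), and without day 4 replicate 1 it was -1.38 (adjusted p = 0.28), so that the size of this change rested on which array of day 4 was used. Normalized and fitted again without the replicate 1 arrays of days 2 and 3, neither of which is in this comparison, it was -2.70. That fit kept the arrays of day 1, with mesoderm marker sums of 3617 and 7596. From day 1 to day 2 the change was -1.88 ± 0.85 (adjusted p = 0.23).

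The gene next to IGFBP2, IGFBP5, encodes a binding protein that also attaches to extracellular matrix. Its signals were 30.1 and 28.4 at day 1, 12.4 and 14.9 at day 2, 4.98 and 14.6 at day 3, and 10.03 and 16.3 at day 4. The deposited signals of day 1 lay above all later ones, but after normalization those of days 1 and 4 overlapped, and the change was -0.24 ± 0.30 (adjusted p = 0.60). Its signals were near the filter signal, where the change depends on the 16 added before the logarithm.

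IGFBP1, which encodes a binding protein that liver makes under the control of insulin in mammals, went the other way after normalization. Its signals were 24.8 and 53.1 at day 1, 39.0 and 108 at day 2, 85.2 and 75.9 at day 3, and 66.3 and 38.9 at day 4. Both arrays of day 3 lay above both of day 1, while the deposited signals of days 2 and 4 overlapped those of day 1. The normalized change was 1.02 ± 0.44 from day 1 to day 2 (adjusted p = 0.22) and 0.97 ± 0.44 from day 1 to day 4 (adjusted p = 0.15), against 0.34 ± 0.44 for the latter as deposited (adjusted p = 0.59). IGFBP1 was lower on the array of day 2 with the high mesoderm marker sum than on the other. With both such arrays left out, an alternative chosen after the data were seen, it rose by 1.75 from day 1 to day 2. Day 2 then had 1 array, the one with the higher signal, and the larger rise of IGFBP1 followed from that choice. Its genomic neighbour IGFBP3, for the main IGF carrier of adult mammalian plasma, had signals of 18.1 and 28.8 at day 1, 33.8 and 6.73 at day 2, 21.1 and 11.5 at day 3, and 8.83 and 2.13 at day 4. Both arrays of day 4 were below both of day 1, and the change of IGFBP3 was -0.56 ± 0.34 (adjusted p = 0.27).

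IGFBP7, which encodes a secreted protein of vessel walls and matrix, differed more between the arrays of a day than between days. Its signals were 225 and 354 at day 1, 935 and 121 at day 2, 336 and 86.3 at day 3, and 100.2 and 251 at day 4. The arrays of day 2 were 7.71-fold apart and those of day 3 3.89-fold apart, and in both cases replicate 1, with the high mesoderm marker sum, was the higher. All days overlapped day 1. The change from day 1 to day 4 was 0.05 ± 0.81 after normalization (adjusted p = 0.97) and -0.76 ± 0.77 as deposited (adjusted p = 0.47), so its sign depended on the scale. Between days 1 and 2 it was 0.83 ± 0.81 (adjusted p = 0.60). With the replicate 1 arrays of days 2 and 3 left out, a choice made after the data were seen, it was -0.44. Day 2 then had 1 array, the one with the lower IGFBP7 signal. IGFBP2, IGFBP3 and IGFBP4 were likewise higher on replicate 1 of both days. After normalization, 5 of 8 tested members were higher on replicate 1 of day 2, and 7 of 8 on day 3. Over all genes the shares were 48% and 50.3%. On day 1, where the mesoderm marker sum was higher on replicate 2, it was also 5 of 8, against 54.4% of all genes. On day 4 it was 4 of 8, against 45.9%. On day 4, IGFBP2 and IGFBP7 were higher on replicate 2, with a mesoderm marker sum of 442 against 604 on replicate 1. The part of mesoderm in the signals of IGFBP7, IGFBP2, IGFBP3, IGFBP4 and IGFBP1 was not tested.

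**Figure D2:**
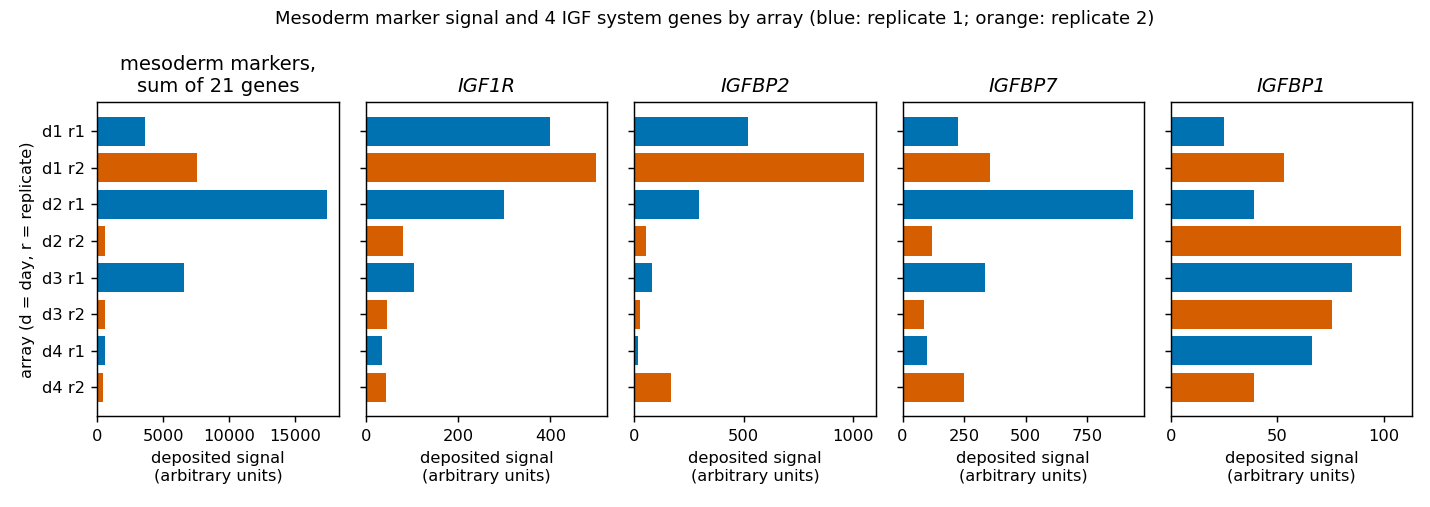
Summed deposited signal of 21 mesoderm, mesothelium and smooth muscle markers (first panel) and deposited signals of IGF1R, IGFBP2, IGFBP7 and IGFBP1 on each of the 8 arrays, in arbitrary units from 0. Blue bars are replicate 1 and orange bars replicate 2; on days 2 and 3 the marker sum, IGF1R, IGFBP2 and IGFBP7 are higher on replicate 1, while IGFBP1 is higher on replicate 2 of day 2.

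IGFBP4, for a binding protein that mainly inhibits IGF action, had a normalized change from day 1 to day 4 close to 0. Its signals were 101 and 184 at day 1, 112 and 49.6 at day 2, 67.8 and 46.5 at day 3, and 68.8 and 75.8 at day 4. Deposited signals of day 4 lay below those of day 1, normalized ones overlapped, and the change was -0.00 ± 0.28 with a 95% interval of -0.64 to 0.63 (adjusted p = 0.99). As deposited the change of IGFBP4 was -0.79 ± 0.42 (adjusted p = 0.17).

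The ligand genes gave low signals throughout. The probe set of IGF1 read 2.06 and 6.53 at day 1, 0.591 and 1.39 at day 2, 1.33 and 2.87 at day 3, and 1.42 and 0.883 at day 4, below the filter signal on all 8 arrays, so that it was not tested. Tested without a filter, the change of IGF1 from day 1 to day 4 was -0.13 ± 0.10 (adjusted p = 0.50). Of the 3 probe sets of IGF2, 2 also lay below the filter signal on every array, with ranges of 0.868 to 6.01 and 0.777 to 9.66. The third read 27.1 and 37.8 at day 1, 9.24 and 10.7 at day 2, 16.04 and 13.5 at day 3, and 16.9 and 12.1 at day 4. Both arrays of day 1 were above all later ones for this probe set of IGF2. After normalization the gap was small, with 5.21 on day 1 replicate 2 and 5.20 on day 4 replicate 1 on the log2 scale. The normalized changes were -0.52 ± 0.22 from day 1 to day 2 (adjusted p = 0.20) and -0.21 ± 0.22 from day 1 to day 4 (adjusted p = 0.53). Signals of this probe set were near the filter signal, where the change depends on the 16 added. Probe sets differ in how strongly they bind their target, so these readings do not rank IGF1, IGF2 or any other genes by their transcript levels. INS, for insulin, was also low, at 22.3 and 38.3 at day 1 and 9.55 and 23.4 at day 4, with a change of -0.07 ± 0.28 (adjusted p = 0.87).

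Across the 8 of 9 genes that passed the filter on low signals, 1 fell and 0 rose from day 1 to day 4, where 16.2% of all 10553 tested genes fell and 13.1% rose. As deposited, 2 of 8 fell and 0 rose, where 33.5% of all genes fell and 4.61% rose. After normalization the median change of the 8 genes was -0.22 against -0.05 over all genes. Between days 1 and 2, 0 members were called by limma, with 2 of 8 at an unadjusted p under 0.05 against 28.1% of all genes, while 5.22% of all genes rose and 2.87% fell. From day 2 to day 3 and from day 3 to day 4 the calls were 0 of 8 among the members and 0% of all genes, with 0 members and 1603 and 679 of all genes at an unadjusted p under 0.05. In the F-test over the 4 days 1 of 8 members was called, against 22.8% of all genes. The member counts were therefore near or below the shares over all genes.

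**Figure D3:**
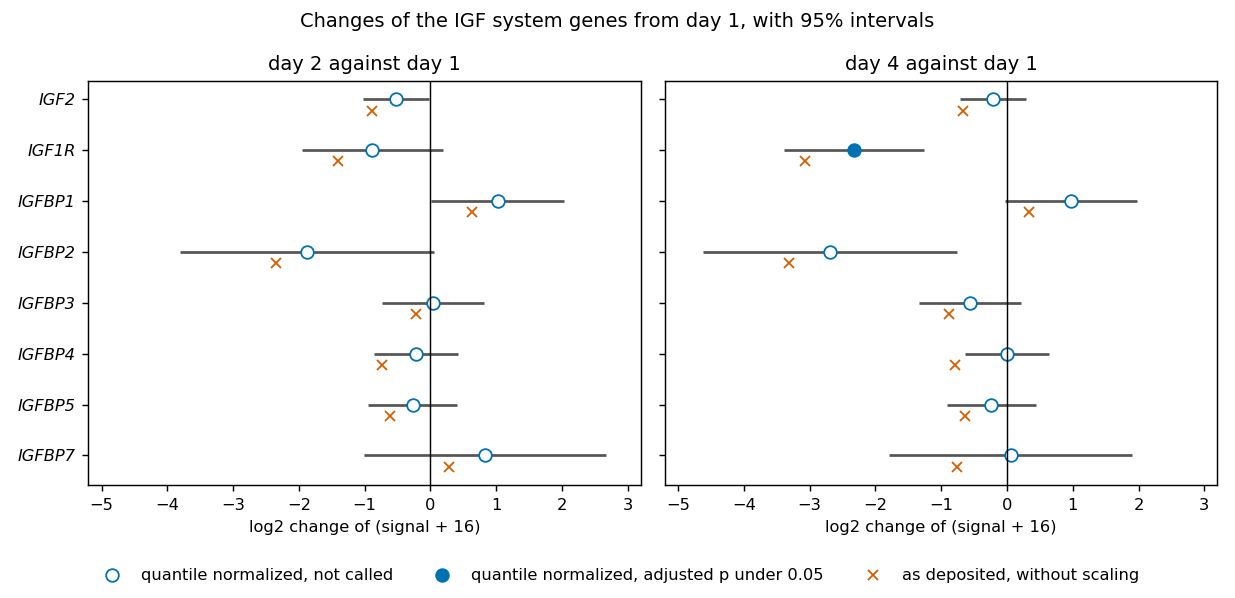
Log2 change of (signal + 16) from day 1 to day 2 and to day 4 (x axis) for the 8 tested genes. Circles are quantile normalized estimates with their 95% intervals, filled where the adjusted p is under 0.05, and crosses are the deposited signals without scaling; IGF1R on day 4, at -2.33, is the filled circle, and the crosses lie to the left of the circles.

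By the Pearson correlation over the 8 arrays on the normalized log2 scale, the genes most like IGF1R among 10144 were FYN (0.99), MYC (0.99) and LMO2 (0.99). FYN encodes a tyrosine kinase of the SRC family, MYC a growth-promoting transcription factor and LMO2 a cofactor of blood and vessel precursors. LMO2 is itself in the list of endothelial and vessel precursor markers summed above. They were picked for their likeness, which follows the day order and the difference between the arrays of days 2 and 3 alike. Because IGF1R fell from day 1 to day 4, a fall of these genes followed from that choice. Their changes are given as description only. MYC had signals of 792 and 1070.2 at day 1, 644 and 85.3 at day 2, 137 and 29.1 at day 3, and 17.1 and 15.2 at day 4. From day 1 to day 4 MYC fell by 4.29 ± 0.76, FYN by 1.96 ± 0.49 and LMO2 by 5.38 ± 1.18.

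Other genes of the pathway were read from 6 lists with 93 symbols, of which 74 were on the array and 68 were tested. From day 1 to day 4, 12 of the 68 (17.6%) rose and 14 (20.6%) fell, with a median change of -0.05, and as deposited 5 rose (7.35%) and 24 fell (35.3%). These shares were near those of all genes given above, 13.1% and 16.2% normalized and 4.61% and 33.5% as deposited. Ligands, receptors and carriers held 4 rises and 0 falls among 7 tested, against 13.1% and 16.2% of all genes. INSR, the receptor of insulin and the closest relative of IGF1R, read 136 and 158 at day 1, 195 and 346 at day 2, 464 and 480.0 at day 3, and 317 and 329.7 at day 4. All later arrays of INSR lay above both of day 1, and it rose by 1.86 ± 0.34 (adjusted p = 0.0067), where IGF1R fell by 2.33 ± 0.47. These values of INSR are of the brightest of its 4 probe sets, and the others are not described here. GHR, the growth hormone receptor that drives IGF1 production in liver after birth, rose by 2.13 ± 0.29 (adjusted p = 0.0023), from 70.8 ± 17.4 to 211 ± 32.6. IGFALS, which encodes the acid-labile subunit of the plasma IGF complex, rose by 2.40 ± 0.40 (adjusted p = 0.0049), from 25.1 ± 5.63 to 133 ± 49.9. Both GHR and IGFALS had already risen by day 2 after normalization, by 1.81 ± 0.29 (adjusted p = 0.011) and 1.74 ± 0.40 (adjusted p = 0.040). As deposited, 0 of the 7 tested genes of this list were called higher on day 2, against 250 of all 10553 genes.

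LRP2, for the endocytic receptor megalin, rose by 0.89 ± 0.20 (adjusted p = 0.016), while its deposited change of 0.31 was not called (adjusted p = 0.46). IGF2R encodes the mannose 6-phosphate receptor, which binds IGF2 in mammals but not in the chicken. Its change was 0.65 ± 0.30 (adjusted p = 0.15) and -0.09 as deposited, with deposited means of 585 ± 117 and 544 ± 10.7. The list of proteases of binding proteins and their inhibitors, with 7 tested genes, also held proprotein convertases. PCSK6, such a convertase, rose by 1.51 ± 0.23 (adjusted p = 0.0037, as deposited 0.13). STC2, an inhibitor of the protease PAPPA in mammals, fell by 1.25 ± 0.22 (adjusted p = 0.0060), from 34.6 ± 18.4 to 0.423 ± 0.211, a level below the filter signal. With a mean of 9.97 over the arrays, STC2 passed the filter of 9.96 only through day 1, as all later arrays lay below it. The direction of its call was thus partly set by the filter. FURIN, a convertase that matures the IGF1 receptor, and ADAM12, a metalloprotease that cleaves binding proteins in mammals, were at 0.69 ± 0.24 (adjusted p = 0.075) and -0.83 ± 0.52 (adjusted p = 0.29).

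The 3 genes for IGF2 mRNA-binding proteins, which bind IGF2 and other transcripts in early embryos, had 0 calls by limma from day 1 to day 4, with IGF2BP2 and IGF2BP3 at an adjusted p of 0.081 and 0.073. IGF2BP3 had mean signals of 2768.5 ± 801 at day 1 and 1463 ± 45.9 at day 4, a change of -0.46 ± 0.16 that was called as deposited (-0.88, adjusted p = 0.033). IGF2BP2 differed between days in the F-test (adjusted p = 0.015), with deposited means of 545 ± 110 at day 1, 220.4 ± 68.8 at day 2 and 478 ± 25.2 at day 4. From day 1 to day 4 its normalized change was 0.60 ± 0.22. As deposited it was -0.17 (adjusted p = 0.74 by limma), so the sign for IGF2BP2 depended on the scale. IGF2BP1 was at 47.4 ± 22.4 at day 1 and 16.2 ± 4.00 on day 4 (adjusted p = 0.30). Among 7 proteins with an IGFBP-like domain CCN3, a matricellular protein, fell by 1.15 ± 0.34 (adjusted p = 0.041), from 68.2 ± 41.9 to 8.97 ± 5.55. CCN3 too passed the filter through its day 1 signals. HTRA3, a secreted serine protease, was at 1.09 ± 0.34 (adjusted p = 0.051), WISP1, of the same family as CCN3, at -0.82 ± 0.37 (adjusted p = 0.15) and CRIM1, a membrane protein, at -0.98 ± 0.69 (adjusted p = 0.34).

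Of 31 signal transducers 5 rose (16.1%) and 7 fell (22.6%), close to the 13.1% and 16.2% of all genes. As deposited 1 of these 31 rose (3.23%) and 13 fell (41.9%), against 4.61% and 33.5% of all genes. PIK3R1, the regulatory subunit of PI3 kinase, rose by 2.42 ± 0.30 (adjusted p = 0.0015), from 155 ± 2.35 to 515 ± 90.2, and had risen by 1.91 ± 0.30 on day 2 (adjusted p = 0.0090). FOXO1, a transcription factor that AKT keeps out of the nucleus, rose by 1.67 ± 0.23 (adjusted p = 0.0024, as deposited 0.088). IRS2, an adaptor of the insulin and IGF receptors, fell by 1.65 ± 0.28 (adjusted p = 0.0052), from 258 ± 135 to 32.7 ± 1.87, and EIF4EBP2, a repressor of translation downstream of mTOR, by 0.83 ± 0.19 (adjusted p = 0.016). Of 13 genes on the list named negative feedback, which also holds PTPN11, 2 rose (15.4%) and 5 fell (38.5%), against 13.1% and 16.2% of all genes. As deposited 1 rose (7.69%) and 6 fell (46.2%), against 4.61% and 33.5% of all genes. SOCS3, a suppressor of cytokine and insulin receptor signals, rose by 1.83 ± 0.32 (adjusted p = 0.0058), and SESN1, an inhibitor of mTOR signalling, by 0.80 ± 0.17 (adjusted p = 0.013, as deposited 0.80). GRB10, an adaptor that restrains both receptors, fell by 1.30 ± 0.23 (adjusted p = 0.0062), and PTPN11, the phosphatase SHP2, which in most settings promotes RAS signalling, fell by 1.28 ± 0.27 (adjusted p = 0.013). Without day 1 replicate 1, day 1 replicate 2 or day 4 replicate 1, the calls among the pathway genes came to 12, 7 and 10 in place of 26, and those among all probe sets to 2238, 1443 and 1978 in place of 5284.

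**Figure D4:**
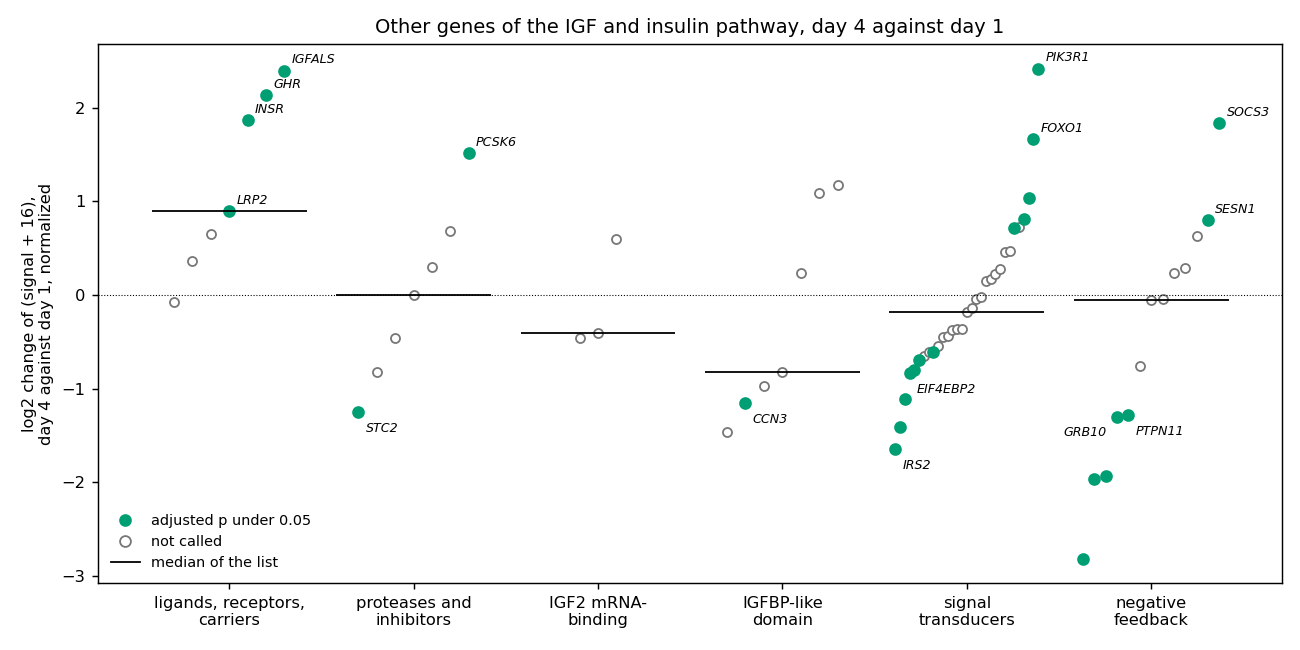
Normalized log2 change of (signal + 16) from day 1 to day 4 (y axis) of the 68 tested pathway genes in 6 lists (x axis). Filled points have an adjusted p under 0.05, open points do not, black lines are list medians and up to 4 called genes a list are named; IGFALS, at 2.40, and PIK3R1, at 2.42, are the highest points.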

How the data were processed

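The deposited values were MAS5 signal intensities on a linear scale, per the submitters' processing notes; which version and target of MAS5 they used is not given in the sources used here. RNA of each sample, 5 µg, was labelled with biotin in 1 cycle without amplification. Of 38535 probe sets 96 controls were set aside, and genes were named from the platform annotation, in which 27168 of the others had 1 symbol, 177 several and 11094 none. Signals were transformed as log2(signal + 16) and quantile normalized; this scale understates changes of low signals. The 23063 probe sets with a mean deposited signal above the 40th percentile (9.96) were fitted with limma 3.58.1 in R 4.3.3 (a mean per day over 8 arrays, intensity trend, 4 residual and 4.66 prior degrees of freedom) with Benjamini-Hochberg adjustment at 0.05. A gene was represented by its brightest tested probe set. Other probe sets of the pathway genes, such as those of INSR, PIK3R1 and IRS2 with 4 each, are not described. The number of arrays, 2 for each day, limits the precision, and the spread behind the p-values is that of pools.

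Members, lists and tests were chosen with earlier results of these data known. The text names every member, up to 4 genes of each pathway list with the smallest F-test p, all IGF2 mRNA-binding proteins, IGF2R, INSR, INS and IGFALS, and the 3 genes most like a member called in the F-test; the markers TTR, APOA1, FOXA2 and HNF4A were picked from their list after their values were seen. Endothelial, mesoderm and endoderm lists are quoted by sums. Lists for red cells, leukocytes, ectoderm and primitive streak are given in the closing section. Alternatives changed the scaling, the number added, the filter, the arrays and the model. The code was tested on simulated arrays. Plots used Python 3.11.15 with matplotlib 3.10.9.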

Additional observations from a re-analysis of the deposited data

How the results depend on the processing

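Of 817 single-gene values under the alternatives, 758 kept their direction and side of the threshold, 9 lost a call, 21 gained one and 29 turned sign, 0 of them with a call on either side; where no cause is named below, the cause was not tested. From day 1 to day 4 the member count was 2 in place of 1, with IGFBP2 added, without scaling, after a shift to the same median, with 64 added before the logarithm, with a 60th percentile filter, with array weights, with only the days compared in the fit, and with both arrays high in mesoderm markers left out. That comparison holds neither of these arrays, so its estimate could move only with the repeated normalization. Its p could also move with the filter, the spread and the adjustment. IGFBP2 had an adjusted p of 0.0472 with the 60th percentile filter, 0.0371 with array weights and 0.0331 with only the days compared. The calls over all 23063 probe sets moved as well under these settings, from 5284 as reported. They were 7134 without scaling, 6064 after the shift to the same median and 5216 with 64 added. With array weights they were 5405, and with only the days compared 5440. The 60th percentile filter gave 5089 calls among 15376 probe sets. From day 1 to day 2 the member count moved from 0 with both arrays left out. That choice was made after the data were seen and leaves 1 array on day 2, so no weight is put on the count. In the F-test it was 2 without scaling, with array weights and with both arrays left out, and 0 without a filter, where more probe sets are tested (IGF1R adjusted p = 0.0583). Leaving out 1 array at a time, which also leaves fewer residual degrees of freedom, gave 0 to 3 members from day 1 to day 4, 0 to 1 from day 1 to day 2, 0 to 2 in the F-test and 7 to 29 pathway genes; without an array of day 2, IGFBP1 was called from day 1 to day 4 (adjusted p = 0.0419 and 0.0417). With the replicate block the member count from day 1 to day 4 was 1 (IGF1R adjusted p = 0.00616). The same fit called 21 of 68 pathway genes and 4861 of all 23063 probe sets. The labels give the replicates only a number. Correlations of the replicate differences were 0.38 between days 2 and 3, and -0.11 to 0.05 between the other days. All probe sets called from day 1 to day 4 split into 2443 higher and 2841 lower after normalization and 790 and 6344 as deposited, and from day 1 to day 2 into 854 and 500, and 371 and 860. Signs turned, all without a call, as follows. Without scaling, IGF2 and IGFBP7 were at -0.018 and -0.11 from day 3 to day 4, IGFBP3 at -0.22 from day 1 to day 2 and IGFBP7 at -0.76 from day 1 to day 4 (-0.39 at the same median). With 1 added before the logarithm, IGFBP3 was at -0.044 from day 1 to day 2 and 0.0059 from day 2 to day 3. With both arrays left out, IGFBP3 and IGFBP7 were at -0.44 and -0.44 from day 1 to day 2, and IGFBP1 and IGFBP3 at -0.44 and 0.22 from day 2 to day 3. Leaving out 1 array at a time, changes from day 1 to day 2 ranged from -0.43 to 0.53 for IGFBP3, -0.53 to 0.096 for IGFBP4 and -0.44 to 2.09 for IGFBP7. From day 2 to day 3 they ranged from -0.38 to 1.055 for IGFBP1, -0.54 to 0.42 for IGFBP3, -0.55 to 0.075 for IGFBP4, -0.59 to 0.018 for IGFBP5 and -2.075 to 0.45 for IGFBP7. From day 3 to day 4 they ranged from -0.000999 to 0.23 for IGF2, -1.058 to 1.59 for IGFBP2 and -0.83 to 0.92 for IGFBP7. From day 1 to day 4 they ranged from -0.058 to 0.048 for IGFBP4 and -0.47 to 0.58 for IGFBP7. Signal over background limits what can be said of the ligands: IGF1 and 2 of the 3 probe sets of IGF2 were above the filter signal on 0 arrays.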

Other observations

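The remaining marker lists, as summed deposited signals on the arrays of each day, were as follows. The 9 markers of primitive red cells summed to 1056 to 3652 on day 1, 37378 to 49132 on day 2, 31837 to 34880 on day 3 and 13749 to 23954 on day 4. The 7 leukocyte markers stayed between 196 and 414 on all arrays. The 11 markers of ectoderm and nervous tissue summed to 899 and 2667 on day 1 and to at most 281 later, and the 10 markers of the primitive streak to 2325 and 5410 on day 1 and to at most 476 later.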
